A study of Mus musculus with 16 samples.

Results

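The genes described here are 10 genes of smooth muscle cells and pericytes, *Acta2*, *Myh11*, *Tagln*, *Cnn1*, *Smtn*, *Actg2*, *Lmod1*, *Mylk*, *Myocd* and *Rgs5*. They were taken by symbol: a probeset counted where the platform table gave it a single symbol among these names, and all 10 genes were found, each with 1 probeset, of 19937 genes and 34760 probesets in all. RNA had been hybridised to 16 MoGene 1.0 arrays, 1 array per sample, and the values are normalized log2 signals, so a difference of 1 is a doubling. The groups were the P18-cochlea of Tg1MDW/1MDW mice (n = 3), the P18-cochlea of WT mice (n = 3), the microdissected organ of Corti (OC) at P5 of Tg1MDW/1MDW mice (n = 5) and the P5-OC of WT mice (n = 5). Tg1MDW/1MDW mice are homozygous for 1 transgene line on the FVB/NCrl background. In it a GFAP promoter construct, meant for supporting cells, drives the miRNA genes *Mir183*, *Mir96* and *Mir182*. Staining was described at P18 in supporting cells, spiral limbus and Schwann cells, and at P5 no clear difference from WT could be identified by staining. The WT mice carried no transgene. At P18 the whole cochlea without the vestibular labyrinth had been taken and at P5 the sensory epithelium, so age and dissected tissue cannot be told apart in any comparison of P18 with P5.

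Smooth muscle cells ring the arteries and arterioles of the cochlea, and pericytes lie on its capillaries, where those of the stria vascularis are dense. Both are mural cells: they set vessel tone through a contractile apparatus of smooth muscle actin and smooth muscle myosin, switched on by phosphorylation of the myosin light chain. Serum response factor (SRF) and its partner myocardin turn on many genes of this apparatus through a DNA element named the CArG box. Pericytes share part of this programme and are marked in addition by *Rgs5*, a regulator of G protein signalling. Several of these genes are also used by other cells of the inner ear, so the probesets read total RNA of a tissue, in which fewer cells of a type and less RNA per cell cannot be told apart.

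Samples were grouped by their names. On all 16 samples a further label field names another age, dissection or genotype than the sample name does, and the transgene served as a check: *Mir183*, *Mir96*, *Mir182* and the *Prm1* element of the construct averaged 7.65 to 7.77 in P18 Tg1MDW/1MDW arrays against 4.24 to 4.42 in P18 WT arrays, and 7.64 to 8.48 in P5 Tg1MDW/1MDW arrays against 4.43 to 4.96 in P5 WT arrays. Of 8 hair cell and supporting cell markers, 7 were lower in the WT P18-cochlea than in the WT P5-OC and none was higher, led by *Tecta* (-4.82), *Sox2* (-2.21) and *Slc26a5* (-1.60). In that comparison 30.2% of all probesets were lower and 19.8% higher. Arrays correlated at 0.990 to 0.995 within P18, at 0.973 to 0.992 within P5 and at 0.902 to 0.937 between the ages. Array medians were 6.33 to 6.36 at P18 and 6.51 to 6.63 at P5, and the files carry no detection calls, so a low signal could not be separated from background. The names call the samples biological replicates without saying whether each is a separate animal, so p-values measure the spread between these samples, which may be technical.

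RefSeq start regions (mouse build GRCm38.p6, 250 bases before to 50 after a start) matched 6 of the 10 genes, *Acta2*, *Cnn1*, *Smtn*, *Lmod1*, *Mylk* and *Rgs5*. Those of *Acta2* and *Smtn* are shown, because *Acta2* had the largest change between the P18-cochlea and the P5-OC and *Smtn* had the only difference between genotypes that passed the test. Capitals mark CArG boxes in which at most 1 base of the middle 6 is G or C. The *Acta2* region lies at chr19:34255324-34255623 on the minus strand and that of *Smtn* at chr11:3539243-3539542 on the minus strand.
Acta2: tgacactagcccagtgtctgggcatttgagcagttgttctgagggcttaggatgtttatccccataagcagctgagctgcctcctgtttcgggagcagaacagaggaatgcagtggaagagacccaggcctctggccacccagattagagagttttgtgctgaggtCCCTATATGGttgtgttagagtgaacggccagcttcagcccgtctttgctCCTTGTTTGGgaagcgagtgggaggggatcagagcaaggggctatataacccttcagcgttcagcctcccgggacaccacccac
Smtn: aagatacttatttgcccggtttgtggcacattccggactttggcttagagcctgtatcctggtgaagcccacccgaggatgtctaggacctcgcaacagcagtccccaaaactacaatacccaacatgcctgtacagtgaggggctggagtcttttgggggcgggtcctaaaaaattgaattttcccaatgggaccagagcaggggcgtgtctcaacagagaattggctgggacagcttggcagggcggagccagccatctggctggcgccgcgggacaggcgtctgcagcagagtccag
The *Acta2* region holds 2 such boxes, CCCTATATGG starting at -84 and CCTTGTTTGG starting at -34 relative to the start, and each has 1 G or C in its middle. The start used for *Acta2* lies inside the annotated gene, which reaches to chr19:34255585, so the positions hold for that start only. The other 5 regions, *Smtn* among them, hold none. That of *Mylk* (chr16:34784700-34784999) also lies inside its annotated gene (chr16:34745199-35002436). No region of the 6 holds the exact box, with only A and T in the middle. Among all 32851 start regions of the same length, 1.63% hold the exact box and 9.98% the box with at most 1 G or C in the middle, counted on both strands. A match is a stretch of letters and not a shown binding site.

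*Acta2*, *Tagln*, *Myh11* and *Cnn1* were higher in the P18-cochlea than in the P5-OC in both genotypes. *Actg2*, *Smtn* and *Lmod1*, which also act on or form actin filaments, did not pass as higher in both. *Acta2* encodes smooth muscle actin. Its log2 signal was 10.17, 10.32 and 10.42 in P18 Tg1MDW/1MDW arrays against 6.92, 7.18, 6.65, 6.72 and 6.51 in P5 Tg1MDW/1MDW arrays. In WT it was 10.14, 10.14 and 10.22 at P18 against 7.11, 6.87, 6.82, 6.76 and 6.74 at P5. Every P18 array lay about 3 log2 units above every P5 array, and the genotypes overlapped at each age. The log2 change was 3.51 (SE 0.13, limma adjusted p = 7.3e-12) in Tg1MDW/1MDW and 3.31 (SE 0.13, limma adjusted p = 1.2e-11) in WT, which is 11.4-fold and 9.90-fold. By size of rise, *Acta2* stood in place 90 of 34760 probesets in Tg1MDW/1MDW and in place 126 in WT.

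*Tagln*, which encodes the actin-binding protein transgelin (SM22), followed with 8.30, 8.48 and 8.31 in P18 Tg1MDW/1MDW arrays against 6.15, 6.11, 6.03, 6.07 and 5.87 in P5 Tg1MDW/1MDW arrays. In WT its signal was 8.30, 8.43 and 8.31 at P18 against 6.26, 5.70, 6.39, 6.0 and 6.13 at P5. The ages did not overlap, and at P18 the genotypes lay within 0.2 of each other. *Tagln* rose by 2.32 (SE 0.12, limma adjusted p = 4.3e-10) in Tg1MDW/1MDW and by 2.25 (SE 0.12, limma adjusted p = 5.3e-10) in WT, 4.98-fold and 4.75-fold. It ranked 364 and 425 among all probesets by size of rise.

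*Myh11* encodes the smooth muscle myosin heavy chain. It gave 6.59, 6.66 and 6.69 in P18 Tg1MDW/1MDW arrays against 5.69, 6.08, 5.73, 5.94 and 5.75 in P5 Tg1MDW/1MDW arrays, a log2 change of 0.81 (SE 0.11, limma adjusted p = 9.6e-06). In WT arrays it gave 7.05, 6.90 and 7.05 at P18 against 6.0, 5.72, 5.94, 5.76 and 5.59 at P5, a change of 1.20 (SE 0.11, limma adjusted p = 1.2e-07). *Cnn1*, for calponin, an actin-binding inhibitor of the myosin ATPase, had 6.31, 6.24 and 6.23 in P18 Tg1MDW/1MDW arrays against 5.18, 5.36, 5.32, 5.50 and 5.35 in P5 Tg1MDW/1MDW arrays. In WT its signals were 6.21, 6.13 and 5.84 at P18 against 5.16, 4.64, 5.21, 5.35 and 4.88 at P5. *Cnn1* therefore rose by 0.92 (SE 0.14, limma adjusted p = 3.5e-05) in Tg1MDW/1MDW and by 1.01 (SE 0.14, limma adjusted p = 1.3e-05) in WT, and no P18 array overlapped a P5 array for either gene. The P5 signals of *Cnn1* were near the lower quartiles of the P5 arrays, which were 4.82 to 5.05.

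**Figure D1:**
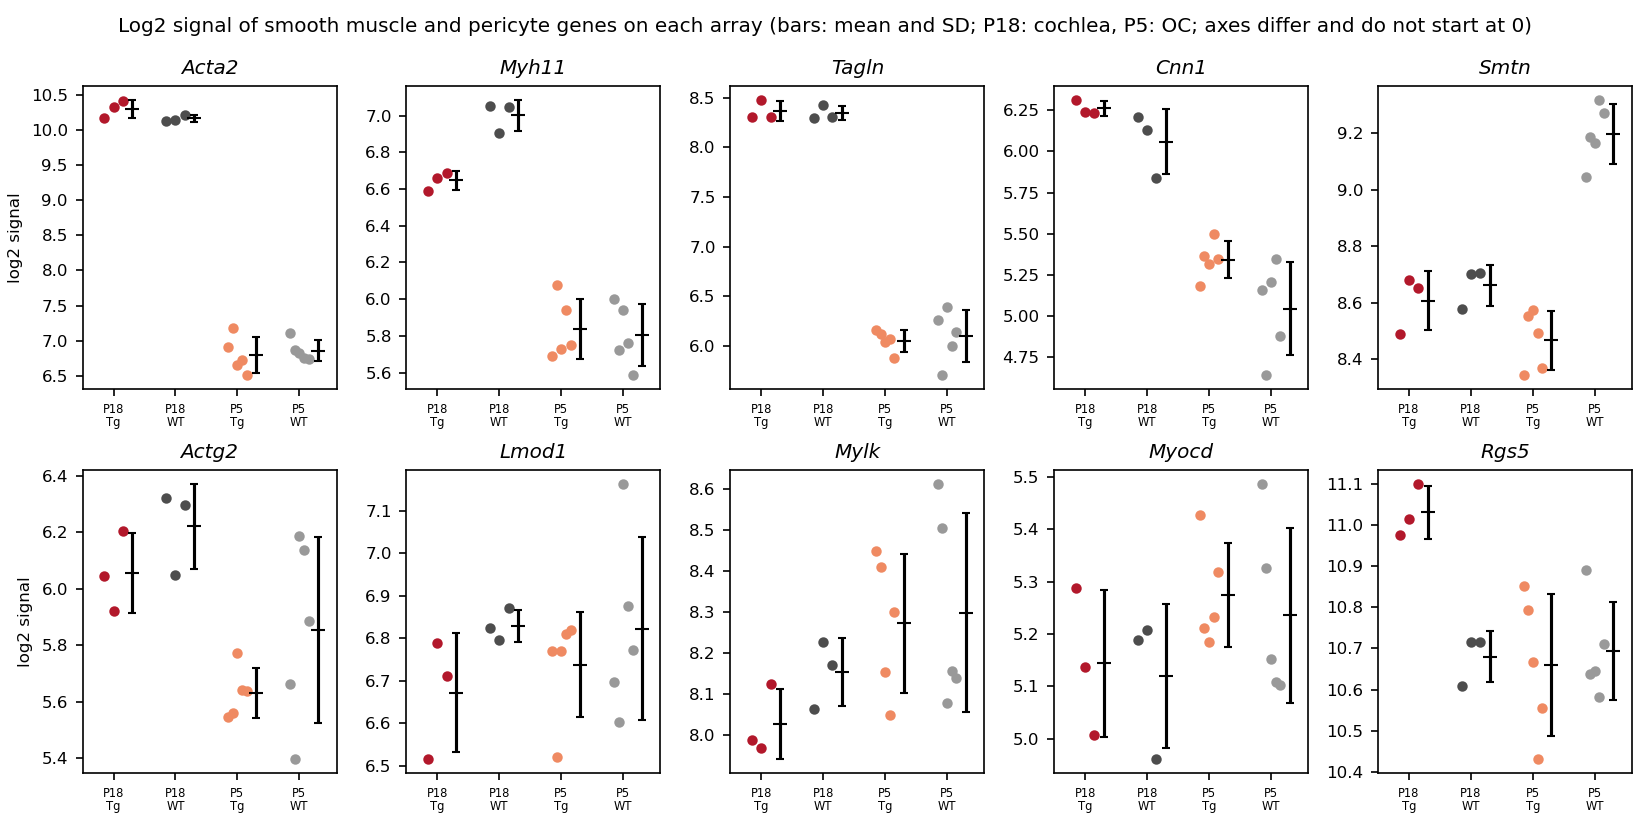
Log2 signal (vertical axes, each with its own range) of the 10 genes on each array of the P18-cochlea and P5-OC in Tg1MDW/1MDW (Tg) and WT mice, with points for arrays and bars for mean and SD. *Acta2*, *Tagln*, *Myh11* and *Cnn1* separate P18 from P5, and for *Smtn* the 5 WT arrays at P5 (9.05 to 9.32) lie above all other arrays.

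None of the remaining 6 genes passed as higher in both genotypes, and *Actg2* and *Rgs5* passed as higher in Tg1MDW/1MDW only. *Actg2*, for enteric smooth muscle actin, had 6.04, 5.92 and 6.20 in P18 Tg1MDW/1MDW arrays against 5.55, 5.56, 5.77, 5.64 and 5.64 in P5 Tg1MDW/1MDW arrays. In WT the ages overlapped, with 6.32, 6.05 and 6.29 at P18 against 5.66, 5.40, 6.19, 6.14 and 5.89 at P5. The change was 0.42 (SE 0.15, limma adjusted p = 0.024) in Tg1MDW/1MDW, and it was 0.37 (SE 0.15, limma adjusted p = 0.051) in WT, which missed the threshold. Over 24 other settings, omissions of arrays among them, it passed in 20 in Tg1MDW/1MDW and in 7 in WT. The *Actg2* call in Tg1MDW/1MDW was lost without P18 replicate 1 (0.43, limma adjusted p = 0.057) and without P18 replicate 3 (0.35, limma adjusted p = 0.11), and in WT a call was gained without P18 replicate 2 (0.45, limma adjusted p = 0.042), P5 replicate 3 (0.45, limma adjusted p = 0.016) or P5 replicate 4 (0.44, limma adjusted p = 0.023).

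*Rgs5* is the pericyte gene of the set. Its signal was 10.98, 11.02 and 11.10 in P18 Tg1MDW/1MDW arrays against 10.85, 10.79, 10.67, 10.43 and 10.55 in P5 Tg1MDW/1MDW arrays, a rise of 0.37 (SE 0.10, limma adjusted p = 0.0043). In WT it was 10.61, 10.72 and 10.72 at P18 against 10.89, 10.64, 10.65, 10.58 and 10.71 at P5, with overlap and a change of -0.01 (SE 0.10, limma adjusted p = 0.92), which became 0.18 when arrays were centred on their medians. The difference between the changes in Tg1MDW/1MDW and in WT, 0.38 (SE 0.14), did not pass the test (limma adjusted p = 0.24).

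*Smtn* encodes smoothelin, an actin-associated protein of contractile smooth muscle. In P18 Tg1MDW/1MDW arrays it had 8.49, 8.68 and 8.65 against 8.34, 8.55, 8.57, 8.49 and 8.37 in P5 Tg1MDW/1MDW arrays, a change of 0.14 (SE 0.08, limma adjusted p = 0.17), which was 0.36 with arrays centred on their medians (limma adjusted p = 0.0032). In WT it had 8.58, 8.70 and 8.71 at P18 against 9.05, 9.19, 9.17, 9.32 and 9.27 at P5. Here every P18 array lay below every P5 array, and *Smtn* fell by 0.54 (SE 0.08, limma adjusted p = 5.5e-05).

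*Lmod1*, *Mylk* and *Myocd* did not pass in either genotype. *Lmod1* encodes leiomodin, a nucleator of actin filaments, *Mylk* the myosin light chain kinase that starts contraction, and *Myocd* myocardin. *Lmod1* lay between 6.52 and 6.87 on P18 arrays and between 6.52 and 7.16 on P5 arrays, and its changes were -0.07 (SE 0.11) in Tg1MDW/1MDW and 0.01 (SE 0.11) in WT. *Mylk* had 7.99, 7.97 and 8.12 in P18 Tg1MDW/1MDW arrays against 8.45, 8.41, 8.15, 8.05 and 8.30 at P5, and 8.06, 8.23 and 8.17 in P18 WT arrays against 8.61, 8.51, 8.08, 8.16 and 8.14 at P5. Its changes were -0.25 (SE 0.13, limma adjusted p = 0.11) and -0.14 (SE 0.13, limma adjusted p = 0.37). Over 25 other settings the *Mylk* change in Tg1MDW/1MDW passed in 1 (limma adjusted p = 0.015). Replicates 1 and 2 of P5 had the highest *Mylk* signals in both genotypes. *Myocd* lay between 4.96 and 5.29 on P18 arrays and between 5.10 and 5.49 on P5 arrays, with changes of -0.13 (SE 0.10) in Tg1MDW/1MDW and -0.12 (SE 0.10) in WT that turned positive when the arrays were scaled again, so no direction is given for it.

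By count, 6 of 10 genes passed in Tg1MDW/1MDW, all higher at P18, where 54.1% of all probesets passed and 21.1% were higher. In WT 5 of 10 passed, 4 higher and 1 lower, where 50% of all probesets passed, 19.8% higher and 30.2% lower. The shares of genes passing were thus close to those of all probesets. A change of at least 2-fold that passed was seen for 2 genes in Tg1MDW/1MDW, both higher, against 16.7% of probesets (5.93% higher). In WT it was seen for 4 genes, all higher, against 17.0% of probesets (5.50% higher). P18 and P5 arrays did not overlap for 6 genes in Tg1MDW/1MDW, as in 52.7% of all probesets, and for 5 genes in WT, as in 49.2%. The median change of the 10 genes was 0.40 in Tg1MDW/1MDW, where that of all probesets was -0.11, and 0.19 in WT, where that of all probesets was -0.06. Centring arrays on their medians moved the median of all probesets to 0.11 in Tg1MDW/1MDW and to 0.13 in WT. It also moved the share of passing probesets that were higher, which was 38.9% in Tg1MDW/1MDW and 39.6% in WT as deposited, to 63.4% and 61.7%. Relative to the median of all probesets as deposited, *Acta2* changed by 3.62 in Tg1MDW/1MDW and by 3.37 in WT, and *Smtn* by 0.25 in Tg1MDW/1MDW and by -0.47 in WT.

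The plot of changes with their intervals places the 4 comparisons side by side, and the P18 comparisons with P5 share their arrays with the comparisons of genotypes.

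**Figure D2:**
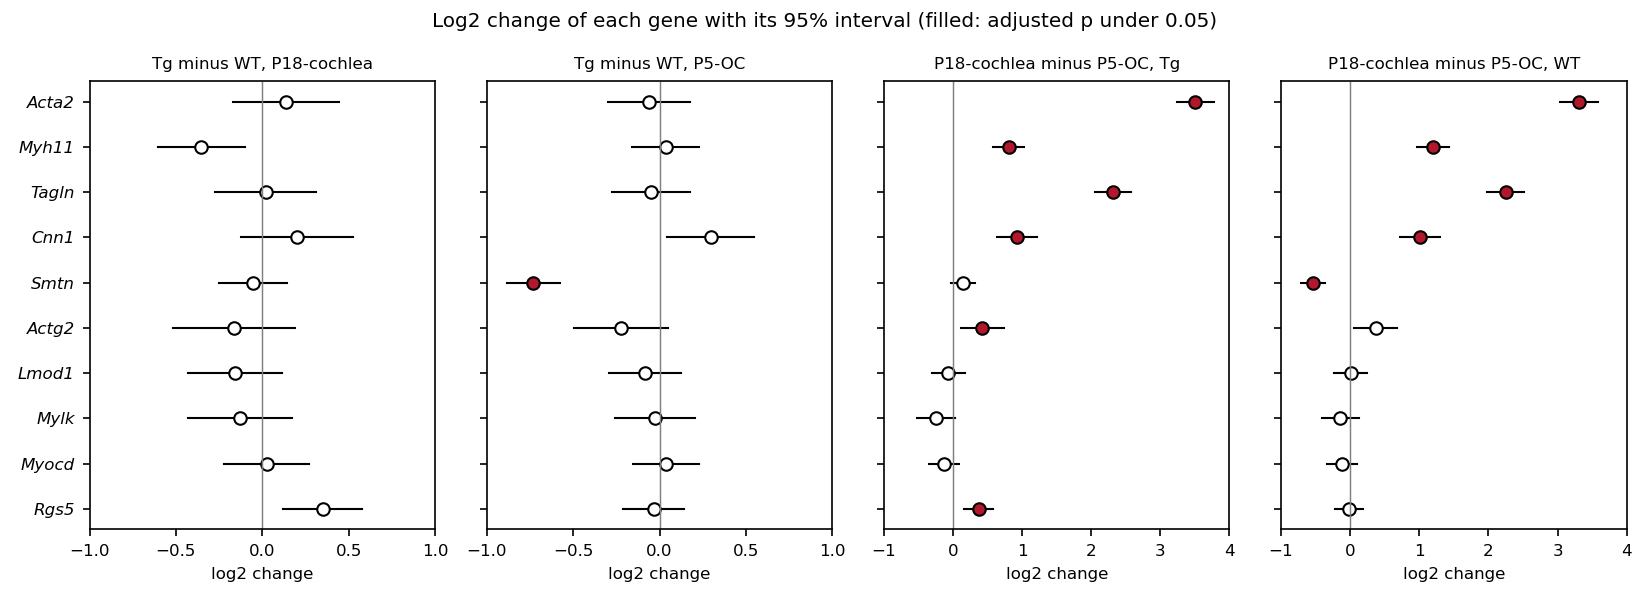
Log2 change (horizontal axes) of each gene with its 95% interval in 4 comparisons, filled where the limma adjusted p was under 0.05. In the P5-OC *Smtn* stands apart at -0.73, no gene is filled in the P18-cochlea, and *Acta2* reaches 3.51 and 3.31 between P18 and P5.

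At P5 the question was whether the transgene changed these genes in the OC. *Smtn* was lower in Tg1MDW/1MDW arrays, where it had 8.34, 8.55, 8.57, 8.49 and 8.37, than in WT arrays, where it had 9.05, 9.19, 9.17, 9.32 and 9.27. The highest Tg1MDW/1MDW array lay below the lowest WT array. The means were 8.47 ± 0.11 in Tg1MDW/1MDW and 9.20 ± 0.11 in WT (SD, n = 5 each), and *Smtn* fell by 0.73 (SE 0.07, 95% interval -0.88 to -0.58, limma adjusted p = 3.9e-05), a ratio of 0.602. It was the only one of the 10 genes to pass, where 0.610% of all probesets passed and 0.549% were lower. It was also the only one whose groups did not overlap, as in 1.67% of all probesets. The call held when each array was left out in turn (-0.77 to -0.70). The share of all probesets passing at P5 rested on single arrays: it was 8.36% without Tg1MDW/1MDW replicate 3, which had the lowest of the 16 weights (0.3165) when limma weighted arrays by their reproducibility, 1.71% without WT replicate 1 and 0.403% without WT replicate 5, and 1 of the 10 genes passed each time.

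Other values moved with the *Smtn* difference. Of 10 myelin genes, a list added after the data were seen, 7 were measured and all 7 were lower in P5 Tg1MDW/1MDW arrays, with a median change of -1.73. The mean over the 7 was 7.71 to 8.36 in Tg1MDW/1MDW arrays against 9.76 to 9.87 in WT arrays. With this mean as a covariate, *Smtn* changed by -0.55 (SE 0.38, limma adjusted p = 0.81). The myelin level and the genotype do not overlap at P5, so their parts in *Smtn* cannot be told apart there. At P18 the myelin means were 9.41 to 9.51 in Tg1MDW/1MDW arrays against 9.08 to 9.16 in WT arrays. The mean of 3 Y-linked genes was above 6 on 1 of 5 P5 Tg1MDW/1MDW arrays and on 4 of 5 P5 WT arrays. *Smtn* was 8.34 on that Tg1MDW/1MDW array and 9.05 on the WT array without the Y-linked signal, and with the Y-linked mean as a covariate it changed by -0.72 (limma adjusted p = 0.0017). At P18 the Y-linked mean was 7.65 to 7.66 in Tg1MDW/1MDW arrays against 7.22 to 7.34 in WT arrays, without overlap. Those values lay between the P5 arrays without the signal (3.90 to 4.06) and with it (8.61 to 8.96). Whether a P18 sample holds more than 1 animal was not tested.

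The other 9 genes did not pass at P5. *Cnn1* came closest, with 5.18, 5.36, 5.32, 5.50 and 5.35 in Tg1MDW/1MDW arrays against 5.16, 4.64, 5.21, 5.35 and 4.88 in WT arrays, which overlapped. Its change was 0.30 (SE 0.12, limma adjusted p = 0.25). *Actg2* changed by -0.22 (SE 0.13, limma adjusted p = 0.39). *Acta2* (-0.06), *Myh11* (0.04), *Tagln* (-0.05), *Lmod1* (-0.08), *Mylk* (-0.03), *Myocd* (0.04) and *Rgs5* (-0.03) had limma adjusted p-values of 0.68 to 0.92. At an unadjusted p under 0.05 there were 2 of the 10 genes, *Smtn* and *Cnn1*, against 16.4% of all probesets. The 95% intervals of all 10 genes lay within -0.88 to 0.55. The median change was -0.04, and that of all probesets was -0.01.

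In the P18-cochlea 0 of the 10 genes passed limma's test between genotypes, where 0.443% of all probesets passed, and 2 had an unadjusted p under 0.05, *Rgs5* and *Myh11*, against 8.77% of all probesets. *Rgs5* had 10.98, 11.02 and 11.10 in Tg1MDW/1MDW arrays against 10.61, 10.72 and 10.72 in WT arrays, without overlap. Its change was 0.35 (SE 0.11, limma adjusted p = 0.26). *Myh11* had 6.59, 6.66 and 6.69 in Tg1MDW/1MDW arrays against 7.05, 6.90 and 7.05 in WT arrays, also without overlap, and its change was -0.35 (SE 0.12, limma adjusted p = 0.32). With array weights both passed, *Rgs5* at 0.34 (limma adjusted p = 0.014) and *Myh11* at -0.34 (limma adjusted p = 0.021), but 6.27% of all probesets passed in that fit. Without 1 array the share of all probesets passing at P18 was 0.245% to 0.521%, lowest without Tg1MDW/1MDW replicate 3. *Cnn1* (0.20) and *Lmod1* (-0.16) made up the 4 genes without overlap, as in 27.6% of all probesets. The rest were *Acta2* (0.14), *Tagln* (0.02), *Smtn* (-0.05), *Actg2* (-0.16), *Mylk* (-0.13) and *Myocd* (0.02). All 10 intervals lay within -0.61 to 0.58, and the median change was -0.02, as for all probesets.

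Striated muscle genes did change in the same P18 arrays. Of 12 skeletal muscle genes, 11 were higher in Tg1MDW/1MDW and the median change was 2.01. *Myh1*, a fast myosin heavy chain, rose by 3.44, *Atp2a1*, the fast-twitch calcium pump, by 3.62, *Tnnt3*, fast troponin T, by 2.92 and *Ckm*, muscle creatine kinase, by 2.32. The mean of the list was 8.23 to 8.28 in Tg1MDW/1MDW arrays against 6.15 to 6.17 in WT arrays. Among 21 measured paralogs of the 10 genes, 3 were higher: *Actc1* by 2.51, *Mylk4* by 2.07 and *Acta1* by 1.92, the first and the last being the striated muscle actins. *Actc1* had 9.67, 9.70 and 9.54 in Tg1MDW/1MDW arrays against 7.0, 7.19 and 7.20 in WT arrays. The smooth muscle actins *Acta2* (0.14, SE 0.14) and *Actg2* (-0.16, SE 0.17) did not pass beside them. The actins are closely alike in sequence, and whether their probes share signal was not tested. Of 6 heart muscle genes none passed limma's test between genotypes at either age, 1 had an unadjusted p under 0.05 at each, and their mean was 5.93 to 5.96 in P18 Tg1MDW/1MDW arrays against 5.93 to 6.02 in P18 WT arrays.

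The genotype effects at the 2 ages were then compared by their difference, P18 minus P5. *Smtn* alone among the 10 genes passed, with effects of -0.05 (SE 0.09) at P18 and -0.73 (SE 0.07) at P5 and a difference of 0.68 (SE 0.12, limma adjusted p = 0.011), where 0.596% of all probesets passed. The call was lost without P18 Tg1MDW/1MDW replicate 2 (0.64, limma adjusted p = 0.054) or 3 (0.65, limma adjusted p = 0.052), without P18 WT replicate 1 (0.63, limma adjusted p = 0.053) and with the Y-linked mean as a covariate (0.67, limma adjusted p = 0.063). *Myh11* (-0.39, SE 0.15, limma adjusted p = 0.27) and *Rgs5* (0.38, SE 0.14, limma adjusted p = 0.24) followed, and 3 of the 10 genes had an unadjusted p under 0.05, against 14.3% of all probesets.

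Other genes of the same programmes were counted from lists by role. Of 26 further smooth muscle contractile genes 25 were measured. In WT 14 were higher and 7 lower at P18 than at P5, where 19.8% of all probesets were higher and 30.2% lower. Their median change was 0.36, where that of all probesets was -0.06. The largest rises were those of *Pln*, the phospholamban that restrains the calcium pump (1.04), *Csrp1*, a LIM protein (1.02), and *Myl9*, the regulatory myosin light chain (0.90). *Itga8*, an integrin (-1.05), *Ppp1r12b*, a myosin phosphatase subunit (-0.96), and *Hspb6*, a small heat shock protein (-0.91), fell most. In Tg1MDW/1MDW 15 were higher and 6 lower, where 54.1% of all probesets passed and 21.1% were higher. Between genotypes 0 of 25 passed limma's test at P5 and 2 had an unadjusted p under 0.05, with *Csrp1* first (-0.22, limma adjusted p = 0.17). At P18 2 were higher in Tg1MDW/1MDW, *Tpm2*, the beta tropomyosin, and *Hspb6*, both also used by skeletal muscle. *Tpm2* had 7.94, 8.14 and 8.02 in Tg1MDW/1MDW arrays against 7.39, 7.40 and 7.26 in WT arrays, a rise of 0.68 (SE 0.11, limma adjusted p = 0.0066). *Hspb6* had 9.02, 9.13 and 9.14 in Tg1MDW/1MDW arrays against 8.49, 8.53 and 8.48 in WT arrays, a rise of 0.60 (SE 0.10, limma adjusted p = 0.0068). Both moved with the skeletal muscle list given above, and its part in them was not tested.

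Of 11 genes listed as regulators of the SRF and myocardin programme, none passed limma's test between genotypes at either age. The list does not separate genes that turn the programme on from genes that hold it back. At each age 1 had an unadjusted p under 0.05, *Srf* at P5 (-0.17, limma adjusted p = 0.27) and *Tbx18* at P18 (0.24, limma adjusted p = 0.52). In WT 4 were higher at P18 than at P5 and 6 were lower, where 19.8% of all probesets were higher and 30.2% lower. *Klf4* (1.35), *Srf* (0.68) and *Prdm6* (0.61) rose most, and *Tbx18* (-1.54), *Hey1* (-1.03) and *Elk1* (-0.83) fell most. *Srf* had 8.72, 8.67 and 8.70 in P18 WT arrays against 7.99, 8.05, 7.99, 7.99 and 8.08 in P5 WT arrays, without overlap. *Tbx18*, a T-box factor of mural precursors, had 9.31, 9.33 and 9.26 in P18 WT arrays against 11.03, 11.02, 10.74, 10.65 and 10.75 in P5 WT arrays.

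Of 16 pericyte genes 15 were measured. In WT 4 were higher and 3 lower at P18 than at P5, where 19.8% of all probesets were higher and 30.2% lower. *Vtn*, for vitronectin, rose by 1.15, *Abcc9*, a subunit of a potassium channel, by 0.76 and *Gucy1a1*, a subunit of the nitric oxide receptor, by 0.65. *Anpep* (-0.65), *Pdgfrb* (-0.55) and *Art3* (-0.42) were lower. *Pdgfrb* is the receptor that keeps pericytes on vessels. *Art3* was the one pericyte gene to pass between genotypes. At P5 it had 8.82, 8.89, 8.83, 8.24 and 8.63 in Tg1MDW/1MDW arrays against 9.35, 9.45, 9.47, 9.37 and 9.51 in WT arrays and fell by 0.75 (SE 0.10, limma adjusted p = 0.00098). The myelin level given beside *Smtn* separates the same arrays, the Y-linked level differs between them, and their parts in *Art3* were not tested. At P18 none of the 15 passed limma's test and 2 had an unadjusted p under 0.05, with *Cspg4* first (-0.27, limma adjusted p = 0.51).

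Of 8 signals between endothelium and mural cells, *Angpt2*, a ligand of the Tie2 receptor, was lower in P5 Tg1MDW/1MDW arrays, at 5.86, 6.01, 6.07, 6.0 and 5.75 against 6.16, 6.38, 6.44, 6.77 and 6.84 in WT arrays, and fell by 0.58 (SE 0.12, limma adjusted p = 0.035). The myelin and Y-linked levels given beside *Smtn* differ between the same arrays, and their parts in *Angpt2* were not tested. None passed limma's test at P18, and 1 had an unadjusted p under 0.05. In WT 5 of the 8 were higher at P18 than at P5 and 1 was lower, against 19.8% and 30.2% of all probesets. *Tgfb1* (2.34), *Angpt2* (1.38) and *Angpt1* (1.23) rose most, and the Notch ligand *Jag1* was lower (-2.46). *Jag1* is also described as a marker of supporting cells, and the part of the dissected tissue in its fall was not tested. Of 13 measured endothelial genes, 7 were higher at P18 in WT, where 19.8% of all probesets were higher and 30.2% lower, *Vwf* (1.93), *Pecam1* (1.05) and *Flt1* (0.59) by most, and 3 were lower, *Emcn* (-0.82), *Eng* (-0.39) and *Kdr* (-0.37), with a median change of 0.37. The mean of the endothelial list was 8.77 to 8.81 in P18 WT arrays against 8.46 to 8.60 in P5 WT arrays. None of the 13 passed limma's test between genotypes, and at an unadjusted p under 0.05 there were 0 at P18 and 4 at P5, with *Kdr* (-0.42, limma adjusted p = 0.13) first at P5 and *Vwf* (-0.31, limma adjusted p = 0.57) at P18. Of 7 fibroblast genes, *Col1a1* (2.89) and *Dpt* (1.90) were higher and *Col3a1* (-0.86) lower at P18 in WT, against the same 19.8% and 30.2% of all probesets. None of the 7 passed limma's test between genotypes, with 1 at P18 and 0 at P5 at an unadjusted p under 0.05. The part of vessel or connective tissue content in the rise of *Acta2* and *Tagln* was not tested.

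**Figure D3:**
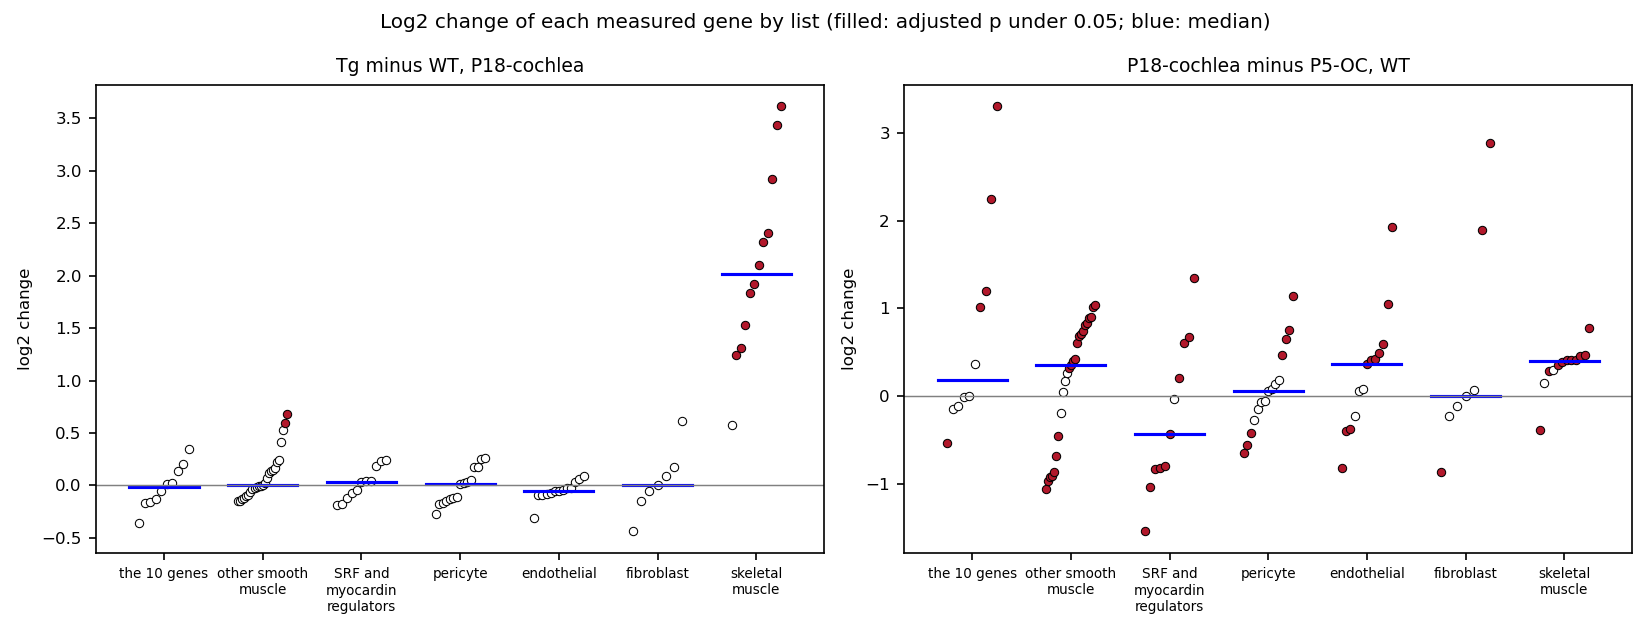
Log2 change (vertical axes) of each measured gene in 7 lists, for Tg1MDW/1MDW minus WT in the P18-cochlea and for P18-cochlea minus P5-OC in WT, filled where the limma adjusted p was under 0.05, with bars at the medians. In the skeletal muscle list 11 of 12 genes are filled between genotypes, with a median of 2.01, and the 10 genes spread from -0.54 to 3.31 between P18 and P5.

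Of the 21 paralogs, 13 passed between P18 and P5 in WT, where 50% of all probesets did, and their median change was -0.02. The higher ones numbered 8, *Rgs4* (2.35), *Cnn2* (1.37) and *Tagln2* (1.25) by most, and 5 were lower, *Lmod3* (-1.78), *Smtnl2* (-1.36) and *Rgs16* (-0.75) by most. At P5 0 of the 21 passed limma's test between genotypes, and 4 had an unadjusted p under 0.05.

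Within groups, the genes that varied most like *Acta2* over the 16 arrays, by Pearson correlation of deviations from the group means among 19927 genes, were *Lgals1* (r = 0.917), *Cyb5b* (0.909), *Chil1* (0.908), *Vcam1* (0.907) and *Egfr* (0.907). For *Rgs5* they were *Actr6* (r = 0.960), *Rab33a* (0.936), *Bcan* (0.924), *Gatm* (0.916) and *Hnrnpab* (0.909). Spearman's rho for these 10 pairs was 0.818 to 0.921. The arrays of a group share dissection and processing, and these values are a description of the arrays.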

How the data were processed

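RNA of 16 samples had been labelled with biotin for the arrays. The authors deposited log2 signals that were already normalized (2.09 to 13.72, none missing). Per the labels limma was used, and the normalization is not given in the sources used here. No further scaling was applied.

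The 4 groups, by sample name (5 and 18 days), entered 1 fit with lmFit and eBayes (limma 3.58.1, R 4.3.3), which left 12 residual degrees of freedom. Each p is two-sided and was adjusted over the 34760 probesets of a contrast by Benjamini-Hochberg, with a threshold of 0.05. The platform table gave 1 symbol to 21640 probesets, several to 1321 and none to 11799, and a gene was read from its brightest probeset. The number of arrays limits the precision.

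The 10 genes and all lists were chosen with earlier results of these data known, and the myelin list was added last. Of each list, up to 4 passing genes or the one with the smallest p were named for genotypes, and up to 3 rises and 3 falls for ages. Alternatives were a replicate block, a term for P5 replicates 1 and 2, Y-linked and myelin covariates, separate fits per age, probeset filters, repeated scaling, another variance model, array weights, means over probesets and each array left out. Python 3.11.15 with matplotlib 3.10.9 drew the plots.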

Additional observations from a re-analysis of the deposited data

Results flagged for a closer look

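*Lmod1* stood apart on 1 array. Its log2 signal was 6.52 in P5 Tg1MDW/1MDW replicate 2, and the gap to the nearest other array of the group was 0.834 of the group's range. Of 20 groups tested (10 genes in both P5 groups), chance would put about 1 in 20 past this limit, and this was the 1 found.

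The genotype effect differed between P18 and P5 for *Smtn*, by 0.68 on the log2 scale (limma adjusted p = 0.011). Among genes of the other lists named for a genotype difference, it differed by 0.79 for *Tpm2*, by 0.996 for *Art3*, by 1.56 for *Acta1*, by 2.29 for *Actc1*, by 2.09 for *Mylk4*, by 2.15 for *Ckm*, by 3.48 for *Myh1*, by 2.86 for *Tnnt3* and by 3.39 for *Atp2a1*, each with a limma adjusted p of 0.012 or below.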

How the results depend on the processing

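Of 480 log2 changes of the 10 genes recomputed under other settings, 443 kept their direction and their side of the threshold, and of 800 recomputed without 1 array, 754 did. The number of arrays and dim signals near the lower quartiles limit what can be seen for *Cnn1* and *Myocd*. The P5 signals of *Actg2* (5.40 to 6.19) and *Myh11* (5.59 to 6.08) were less dim but lay below the P5 array medians (6.51 to 6.63). The filter on dim probesets removed all of these genes. The cause of the changes below was not tested, except for the filter, which removes dim genes.

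The *Smtn* difference at P5 was -0.79 to -0.68 over 27 other settings and passed in all 27, and the myelin covariate, chosen after seeing the data, gave -0.55 (limma adjusted p = 0.81). Deviations of same-numbered samples correlated over 0.1 in 3 of 5 pairs at P5 (r = -0.22 to 0.36) and in 0 of 3 at P18 (0.00043 to 0.069), so the numbers were not taken to pair the samples, and 2 of 5 P5 Tg1MDW/1MDW arrays correlated best with their own number. With the replicate number as a block the counts passing were 1 at P5, 0 at P18 and 1 for the difference between the ages. Of all probesets 0.400%, 0.273% and 0.409% passed in that fit, in the same order. *Smtn* at P5 was -0.73 there (limma adjusted p = 0.0015).

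Without 1 array, the number of the 10 genes passing stayed at 1 at P5 and at 0 at P18. It was 0 to 1 for the difference between the ages, 5 to 6 for P18 minus P5 in WT and 5 to 6 in Tg1MDW/1MDW. In the same fits 43.9% to 51.9% of all probesets passed for P18 minus P5 in WT and 46.4% to 56.9% in Tg1MDW/1MDW. For the difference between the ages 0 passed with the Y-linked covariate and 2 (*Smtn* and *Myh11*) with array weights, where 9.30% of all probesets passed against 0.596% without weights. Array weights also gave 2 (*Rgs5* and *Myh11*) between genotypes at P18, where 6.27% of all probesets passed against 0.443%. At P5 the share was 0.610%, 4.93% with array weights and 0.219% with the Y-linked covariate. Without 1 array the share for the difference between the ages was 0.365% to 1.68%, highest without P5 Tg1MDW/1MDW replicate 3. Without the dimmest 50% of probesets 3 passed for P18 minus P5 in WT (*Acta2*, *Tagln* and *Smtn*) and 3 in Tg1MDW/1MDW (*Acta2*, *Tagln* and *Rgs5*). That filter had removed *Cnn1*, *Myocd*, *Actg2* and *Myh11*, and 65.3% of the probesets kept passed in each genotype.

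Of the 24 changes that turned sign outside the omission of arrays, 1 passed, that of *Myocd* in Tg1MDW/1MDW with quantile normalization repeated (P18 minus P5, 0.26, limma adjusted p = 0.026). That setting also gave -0.030 for *Myh11*, 0.037 for *Mylk* and -0.030 for *Myocd* at P5, -0.010 for *Tagln* at P18, 0.076 for *Myocd* in the difference between the ages, 0.19 for *Myocd* in WT and 0.10 for *Lmod1* in Tg1MDW/1MDW. Arrays centred on their medians gave 0.0097 for *Myocd* in the difference between the ages, 0.052 for *Mylk*, 0.081 for *Myocd* and 0.18 for *Rgs5* in WT, and 0.15 for *Lmod1* and 0.091 for *Myocd* in Tg1MDW/1MDW. Array weights gave 0.016 for *Acta2*, 0.075 for *Mylk* and 0.0077 for *Rgs5* at P5, and -0.014 for *Lmod1* and 0.020 for *Rgs5* in WT. The Y-linked covariate gave -0.094 for *Myh11* at P5, and 0.029 for *Cnn1* and 0.022 for *Myocd* in the difference between the ages. A term for replicates 1 and 2 of P5 gave -0.082 for *Lmod1* and 0.064 for *Rgs5* in WT.

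Without 1 array, 38 changes turned sign and none of these passed. Between genotypes at P5 the ranges were -0.025 to 0.084 for *Myh11*, -0.081 to 0.052 for *Mylk*, -0.082 to 0.023 for *Rgs5*, -0.16 to 0.0092 for *Acta2*, -0.15 to 0.024 for *Tagln* and -0.14 to 0.00064 for *Lmod1*. Between genotypes at P18 the ranges were -0.10 to 0.0050 for *Smtn*, -0.055 to 0.093 for *Myocd* and -0.040 to 0.061 for *Tagln*. For the difference between the ages the ranges were -0.16 to 0.0051 for *Lmod1*, -0.029 to 0.17 for *Actg2*, -0.094 to 0.054 for *Myocd*, -0.21 to 0.0069 for *Cnn1* and -0.0052 to 0.17 for *Tagln*. For P18 minus P5 in WT the ranges were -0.041 to 0.036 for *Rgs5* and -0.048 to 0.092 for *Lmod1*. For P18 minus P5 in Tg1MDW/1MDW the range was -0.12 to 0.012 for *Lmod1*.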
